A study of Arabidopsis thaliana with 24 samples.

Results

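The mitochondrial genome of Arabidopsis thaliana gave 54 of the 33243 rows of the count tables, chosen as every row whose gene ID starts with ATMG. By name they were 29 protein genes, 22 transfer RNA (tRNA) genes and 3 ribosomal RNA (rRNA) genes. RNA was sequenced from unopened flower buds, taken 2 weeks after flowering began, and from dry mature seeds, taken at 8 weeks, in 4 labelled genotypes with 3 biological replicates each (24 libraries, at least 5 plants behind each). WT was the Columbia accession Col-0, and urt1-1, heso1-4 and heso1-4 urt1-1 were T-DNA lines of the same accession for URT1, for HESO1 and for both, which encode terminal uridylyltransferases. Each mutation is represented by 1 insertion line. Seed and flower RNA were extracted by different protocols, so tissue, harvest time and extraction cannot be told apart. Libraries came from 500 ng of total RNA with a stranded plant kit that depletes rRNA, read as pairs of 50 bases.

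Plant mitochondria keep a small genome whose protein genes encode core subunits of the respiratory chain and the ATP synthase, factors that attach heme to cytochrome c, and part of the mitochondrial ribosome. Respiratory complexes are built from these and from many more nuclear-encoded subunits imported from the cytosol. Mitochondrial RNAs are spliced, edited and degraded inside the organelle, and polyadenylation there marks RNA for decay. URT1 acts on messenger RNAs of the cytosol, to which it adds uridines, and HESO1 is best known for tailing unmethylated small RNAs.

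Seed libraries held 19304121 to 38853305 counts, of which 323815 to 475092 were mitochondrial, and flower libraries 23787015 to 39797391, of which 329261 to 522504 were mitochondrial. URT1 RNA stood at 108 ± 3.06 CPM (counts scaled to the library size after TMM normalization; SD, n = 3) in WT seeds and 2.63 ± 0.211 in urt1-1 seeds, and at 47.2 ± 5.79 and 2.41 ± 0.468 in flowers. HESO1 RNA went against its label, with 0.452 ± 0.115 CPM in WT seeds and 182 ± 5.21 in seeds labelled heso1-4, so genotypes with heso1-4 are named below by label. The tissue labels matched their markers. The summed level of 7 dry seed markers was 69896 to 150355 CPM in seeds and 4.76 to 10.1 in flowers, and that of 5 floral organ identity genes was 0.706 to 4.10 CPM in seeds and 309 to 539 in flowers. Plastid genes took 5.49% to 9.38% of each seed library and 20.8% to 26.9% of each flower library. In such bulk samples fewer mitochondria, fewer cells and less RNA per cell cannot be told apart.

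Many mitochondrial genes have a sequence that is also found elsewhere in the genome, which limits how their counts can be read. The Col-0 nuclear genome carries a copied stretch of mitochondrial DNA on chromosome 2, and 40 of the 54 members had a near-identical copy there (at least 95% identity over 50% of the length or more), between positions 3251856 and 3503608. For 31 of them the copy was identical over the whole gene. Of all 50-base windows of a gene, the length of 1 read, 35 members had none that was unique in the genome, 7 members had 3.53% to 8.35% unique, and 12 had 65.4% to 100%. The recorded part of the counting command shows no option to count reads with several placements. The following stretches show what tells a gene from its copy, written 5′ to 3′ along the gene from the RefSeq TAIR10.1 genome, with the base that differs in capitals. In ccmFN1 the only mismatch over 1149 bases is C54T (mitochondrial base, position counted from the first base of the gene, nuclear base), in the exon. The 2 stretches lie at chrM:316041-316091 (+ strand) and chr2:3297918-3297968 (+ strand).
ccmFN1 mitochondrial: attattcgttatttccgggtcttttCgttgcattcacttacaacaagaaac
ccmFN1 nuclear copy: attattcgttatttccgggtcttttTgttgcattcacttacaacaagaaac

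For matR, which differs from its copy at 5 of 1971 bases, the pair around G55A in the exon lies at chrM:231118-231168 (+ strand) and chr2:3402618-3402668 (− strand). For nad7, with 6 mismatches in 6081 bases, the pair around A2040G in an intron lies at chrM:243266-243316 (− strand) and chr2:3390468-3390518 (+ strand).
matR mitochondrial: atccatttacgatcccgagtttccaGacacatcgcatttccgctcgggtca
matR nuclear copy: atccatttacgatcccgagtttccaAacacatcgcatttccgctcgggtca
nad7 mitochondrial: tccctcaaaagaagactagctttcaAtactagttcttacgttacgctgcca
nad7 nuclear copy: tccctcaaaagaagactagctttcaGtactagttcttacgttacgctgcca

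By contrast, cob is identical in both places over its 1182 bases, and cox1 has no matching 50-base window outside its own gene. Their first 60 bases are shown with the start codon in capitals, cob at chrM:182799-182858 (− strand) and at chr2:3450863-3450922 (+ strand), cox1 at chrM:116286-116345 (− strand).
cob in both places: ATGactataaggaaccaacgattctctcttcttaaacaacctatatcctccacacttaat
cox1 mitochondrial: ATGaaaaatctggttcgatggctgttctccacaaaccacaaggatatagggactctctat

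Counts mostly fell into the same classes. Unique sequence did not always go with high counts. The wholly unique rrn5 and trnH(GTG) stood at 0.293 and 8.57 CPM per kb in WT seeds. The 12 members with mostly unique sequence held 95.9% to 97.8% of the mitochondrial counts of every library, the 7 with few unique windows 1.94% to 3.74%, and the 35 with none 0.195% to 0.421%. In all 24 libraries 10 members, all tRNA genes, were listed at 0, and 22 members (18 of them tRNA genes) never reached a count of 10. Among protein genes nad3 was counted in 1 library, at 2, and atp9, which encodes the ring subunit of the ATP synthase, never passed 12. The 42 rows of chromosome 2 that overlap a copy held no more than 0.00138% of counts in any library, so few reads were assigned there. Low values of members without unique sequence therefore cannot be read as low RNA, and the share of the shared sequence in each level was not tested. The 7 members with few unique windows were also set against these in place of length. In WT seeds they then ran from 74.2 (ccmFN1) to 641 (rpl2) CPM per kb of unique window starts, with nad4 at 297 and matR at 309. Protein genes with mostly unique sequence ran from 61.4 (ccmB) to 2990 (cox1), a wide range. The windows take no account of read pairing, and its effect on these levels was not tested. In WT seeds rpl2 stood at 35.8 ± 4.34 CPM per kb (n = 3, library size unscaled) but at 641 CPM for each kb of bases at which a unique window starts, and nad7 at 21.4 ± 0.672 and 433, where cox2 stood at 529 ± 20.7 CPM per kb and 592 CPM per kb of unique window starts.

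**Figure D1:**
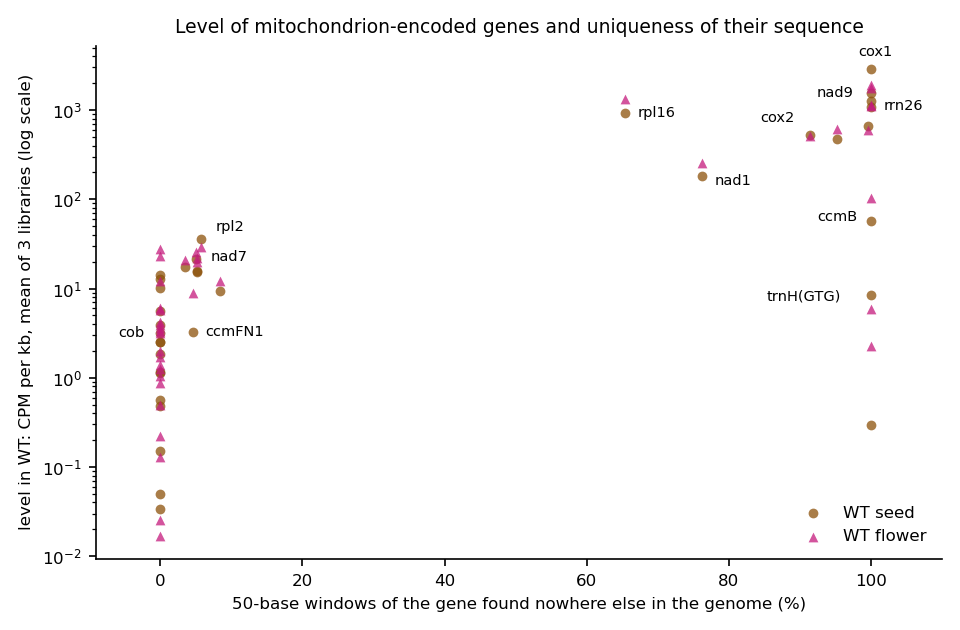
Mean level of each member in WT seeds (circles) and WT flowers (triangles), in CPM per kb of gene on a log scale, against the percentage of its 50-base windows found nowhere else in the genome; members at 0 are not drawn. Members with unique sequence reach 2897 CPM per kb (cox1 in seeds), whereas the highest of those with few or none is rpl2 at 35.8.

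Among members with mostly unique sequence the order of levels per kb differed between the tissues at its top. In WT seeds cox1, a core subunit of cytochrome c oxidase (complex IV), was highest at 2897 ± 142 CPM per kb, followed by nad9, a peripheral-arm subunit of NADH dehydrogenase (complex I), at 1545 ± 118. Next in seeds came the large-subunit rRNA rrn26 at 1258 ± 385, the ATP synthase subunit gene atp4 at 1079 ± 172 and the ribosomal protein gene rpl16 at 931 ± 64.1, which were within their spread of each other. In WT flowers nad9 led at 1928 ± 222 CPM per kb with cox1 at 1765 ± 75.2, a gap within their spread, and rpl16 followed at 1323 ± 44.1. This order depends on the measure, since rpl16 has 65.4% unique windows. Per kb of unique window starts rpl16 was highest in WT flowers at 2226 ± 74.1 CPM. By that measure nad9 stood at 2109 ± 243 and cox1 at 1821 ± 77.6. The small-subunit rRNA rrn18, cox2 and rps3 stood between 475 and 662 CPM per kb in seeds and between 511 and 611 in flowers. Lengths are whole gene spans, so those of cox2 and rps3, with 2 coding parts each, include introns and lower their level per kb. The nad1 row spans 1167 bases of a gene with 5 coding parts. The complex I gene nad1 and ccmB, a subunit of the heme exporter, were the lowest of the protein genes in this class, at 180 ± 16.8 and 56.6 ± 7.52 CPM per kb in seeds and 253 ± 9.29 and 103 ± 3.92 in flowers. The 3′ end of rps3 overlaps rpl16 by 134 bases on the same strand, and reads there were counted for both.

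Mitochondrial genes took 1.202% to 1.79% of all counts in seed libraries and 1.19% to 2.16% in flower libraries. WT seeds stood at 1.68%, 1.40% and 1.49%, and WT flowers at 1.41%, 1.59% and 1.203%. Without plastid rows in the denominator the share was 1.29% to 1.91% in seed libraries and 1.61% to 2.73% in flower libraries. By either denominator the ranges overlapped, and no test was made of this share. The rRNA members took a variable part of it, 21.5% to 45.0% of mitochondrial counts in seeds and 26.3% to 51.6% in flowers. The 4 libraries numbered replicate 1 had the highest rRNA part of their genotype in each tissue, 35.4% to 45.0% in seeds and 36.0% to 51.6% in flowers, except flower WT, where replicate 2 was higher at 38.7%. Without rRNA the share narrowed to 0.851% to 1.10% in seeds and 0.834% to 1.06% in flowers. The library kit depletes rRNA, and the part of depletion in these values was not tested. The short rRNA rrn5 was counted 0 to 17 times per library.

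**Figure D2:**
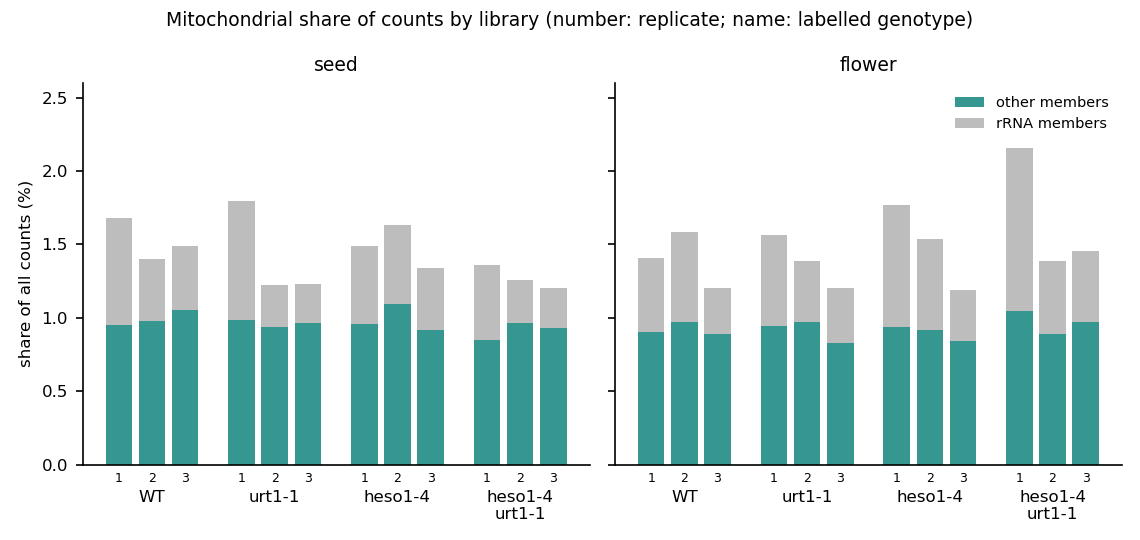
Mitochondrial counts as a percentage of all counts in each of the 24 libraries, split into rRNA members (grey) and all other members (green). The part without rRNA varies little, and the highest bar, flower heso1-4 urt1-1 replicate 1 at 2.16%, has an rRNA part of 51.6% of its mitochondrial counts.

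Between WT seeds and WT flowers, 17 of 30 members tested rose in seeds and 2 fell on the TMM-scaled level (edgeR's quasi-likelihood test, adjusted p under 0.05 over 23557 rows). Over all rows tested 32.9% were called higher and 47.7% lower in seeds. The median log2 difference was 0.47 over the members and −0.56 over all rows. This direction rests on the scaling. The TMM factors were 0.532 to 0.865 in seeds and 1.24 to 1.47 in flowers, and with library totals alone 2 members were higher and 10 lower in seeds (18.4% and 61.0% of all rows), with a median of −0.36 over the members and −1.38 over all rows. DESeq2 called 15 higher and 2 lower (29.7% and 46.3% of all rows). Under TMM and library totals the members' median lay above that of all rows by 1.03 and 1.02 on the log2 scale. A change of scaling shifts all rows alike, so these 2 values could hardly differ. The gap was 0.66 with DESeq2 (34 members tested) and 0.75 without the low-count filter (44 members tested). With 3 libraries a tissue the count of called members was 12 when seed WT replicate 3 or flower WT replicate 1 was left out.

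The complex IV genes cox1, cox2 and cox3 were called higher in seeds on the TMM-scaled level, and of these only cox1 also with library totals. cox1 was measured at 5417, 5947 and 6979 CPM (joint TMM scaling) in WT seeds and 2000, 2249 and 2052 in WT flowers, so all seed libraries lay above all flower libraries. Its log2 difference was 1.54 ± 0.18 (SE, edgeR adjusted p = 8.3e-08), and it remained 0.72 with library totals (adjusted p = 8.0e-05). cox2, which encodes the copper-binding subunit that accepts electrons from cytochrome c, stood at 1358, 1532 and 1595 CPM in WT seeds and 748, 877 and 827 in WT flowers (0.87 ± 0.14, edgeR adjusted p = 8.0e-06). With library totals its difference was 0.05 and not called (adjusted p = 0.72). cox3 gave 2.76, 2.198 and 3.05 CPM in seeds and 1.29, 1.19 and 1.10 in flowers (1.15 ± 0.27, adjusted p = 0.00051 by edgeR), and has no unique window.

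Among complex I genes nad6 had the largest difference of all members that rose. It was counted 122, 176 and 170 times in WT seeds and 109, 122 and 122 times in WT flowers, or 8.34 ± 1.10 against 2.80 ± 0.554 CPM. Its log2 difference was 1.58 ± 0.28 (edgeR adjusted p = 2.9e-05), and 0.75 with library totals (adjusted p = 0.0042). nad6 lies wholly within the stretch copied on chromosome 2. nad7 reached 173 ± 17.1 CPM in seeds and 116 ± 6.24 in flowers, with a log2 difference of 0.57 ± 0.12 (edgeR adjusted p = 0.00014) that turned to −0.25 with library totals and was not called there. The complex III gene cob, for cytochrome b, gave 4.17, 4.74 and 6.27 CPM in seeds and 2.63, 3.27 and 2.65 in flowers (0.83 ± 0.24, adjusted p = 0.0032 by edgeR), and its difference with library totals was near 0. atp4 gave 837 ± 203 against 480 ± 48.7 CPM, a log2 difference of 0.80 ± 0.16 (edgeR adjusted p = 9.0e-05) that was −0.03 with library totals.

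For the mitochondrial translation machinery rpl2 gave 125, 138 and 121 CPM in WT seeds and 56.1, 63.7 and 59.8 in WT flowers (1.09 ± 0.12, edgeR adjusted p = 5.8e-08). With library totals it was 0.28 and not called. rrn26 stood at 5239 ± 1305 and 2733 ± 861 CPM (0.94 ± 0.37, edgeR adjusted p = 0.026), and it was not called without seed WT replicate 1 (adjusted p = 0.10), flower WT replicate 1 (0.0503) or flower WT replicate 3 (0.12). trnH(GTG), the tRNA for histidine and the 1 tRNA gene with unique sequence, is annotated as chloroplast-like. It was counted 7, 30 and 14 times in seeds and 13, 14 and 14 times in flowers. Its log2 difference of 1.39 ± 0.61 (edgeR adjusted p = 0.041) was lost on leaving out any 1 WT library but seed replicate 1 (adjusted p from 0.057 to 0.23).

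Only rps12 and ccmFN1 were called lower in seeds. ccmFN1, part of the complex that joins heme to cytochrome c, gave 4.75, 4.27 and 5.81 CPM in WT seeds and 7.69, 9.14 and 6.32 in WT flowers, without overlap. Its log2 difference was −0.64 ± 0.22 (edgeR adjusted p = 0.013), −1.47 with library totals, and it just missed the threshold without seed WT replicate 2 (adjusted p = 0.051) or flower WT replicate 2 (0.065). rps12, a small-subunit ribosomal protein gene, was counted 12, 12 and 7 times in seeds and 54, 28 and 62 times in flowers (−0.98 ± 0.41, adjusted p = 0.034 by edgeR). It was not called on leaving out seed WT replicate 2 or 3, or flower WT replicate 1 or 3 (adjusted p from 0.065 to 0.13).

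**Figure D3:**
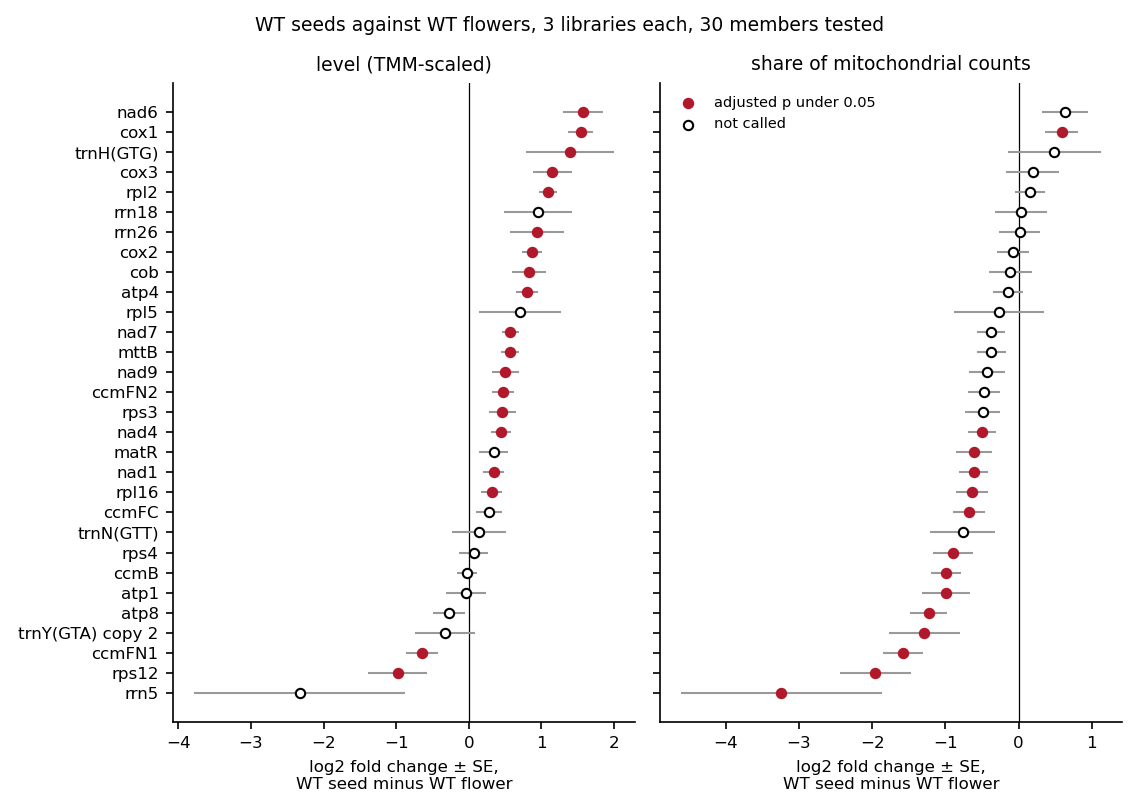
log2 difference between WT seeds and WT flowers (3 libraries each) for the 30 members tested, with its standard error, on the TMM-scaled level (left) and as a share of mitochondrial counts (right); filled points have an adjusted p under 0.05. On the left 17 members are called higher and 2 lower in seeds, which turned to 2 higher and 10 lower with library totals; on the right 1 is called higher and 13 lower.

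As shares of mitochondrial counts, which do not depend on scaling between tissues, the make-up differed. Tested with the mitochondrial total as library size, cox1 was the 1 member whose share was higher in WT seeds and 13 were lower, of 30 tested. With that divisor 15.8% of all rows were called higher and 62.4% lower, since nuclear rows are divided by the same total. With rRNA left out of the sum 2 were higher, cox1 and nad6, and 19 lower (17.0% and 63.3% of all rows). cox1 held 26.1%, 32.7% and 32.3% of mitochondrial counts in WT seeds and 19.7%, 18.4% and 22.3% in WT flowers (0.59 ± 0.23, edgeR adjusted p = 0.021). Its adjusted p was 0.054 to 0.065 when seed WT replicate 2 or 3, or flower WT replicate 1 or 2, was left out. The 13 were ccmFN1, ccmB, ccmFC, nad1, nad4, rps4, rps12, rpl16, atp1, atp8, matR, rrn5 and trnY(GTA) copy 2. They spanned heme attachment, complex I, the ribosome, the ATP synthase and matR, a splicing factor of the maturase family. The largest of these falls with counts above 3 in every library was rps12 (−1.96 ± 0.49, edgeR adjusted p = 0.00087), with 0.0037%, 0.0028% and 0.0018% of mitochondrial counts in seeds and 0.0111%, 0.0063% and 0.0152% in flowers. ccmFN1 held 0.0229%, 0.0234% and 0.0269% in seeds and 0.0758%, 0.0748% and 0.0688% in flowers (−1.58 ± 0.28, edgeR adjusted p = 1.5e-05). ccmB fell from 0.462 ± 0.0784% in flowers to 0.232 ± 0.0361% in seeds (−0.99 ± 0.20, edgeR adjusted p = 9.8e-05). rrn5 rests on 2, 0 and 0 counts in WT seeds, so no fold is given.

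A share depends on the size of the other members, so the sum was also taken without rRNA and cox1, an alternative chosen after the data were seen. By that measure 4 members were higher in seeds (cox1, nad6, rpl2 and cox2) and 5 lower (ccmFN1, rps12, atp8, ccmB and rps4), against 22.8% and 56.5% of all rows. cox1 was then at 0.97 ± 0.16 (edgeR adjusted p = 1.1e-05), nad6 at 1.01 ± 0.25 (0.00097), rpl2 at 0.55 ± 0.14 (0.0011) and cox2 at 0.31 ± 0.14 (0.048). ccmFN1 was at −1.21 ± 0.19 (edgeR adjusted p = 6.6e-06) and ccmB at −0.61 ± 0.12 (0.00012).

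The share of cox1 among non-ribosomal counts varied little within a tissue, and those of several smaller members more. cox1 took 28.8% to 30.8% of non-ribosomal mitochondrial counts in the 12 flower libraries (median 29.5%), a coefficient of variation of 1.80%, and 44.8% to 47.4% in 11 of the 12 seed libraries. In flowers the 3 WT libraries, at 30.8%, 30.03% and 30.3%, lay above the 9 others, at 28.8% to 29.9%. This gap was picked after the values were seen and not tested by this divisor, and like gaps in other members were not counted. As shares of all mitochondrial counts the groups overlapped, at 18.4% to 22.3% in WT and 13.9% to 20.8% in the 9 others. Scaled to mitochondrial counts no member was called in the flower comparisons. Of non-ribosomal counts cox2 took 10.4% to 12.4% in seeds and 10.7% to 12.3% in flowers, with wide overlap. matR took 0.357% to 0.574% in flowers and cob 0.0346% to 0.0584% in seeds. rps3 took 20.2% to 24.9% in flowers (median 21.5%) and 14.1% to 17.5% in the same 11 seed libraries, and nad9 9.93% to 14.3% in flowers and 8.21% to 9.23% in all 12 seed libraries. Of 27 non-ribosomal members with a mean count of 10 or more in each tissue, 1 had all 12 seed libraries above all 12 flower libraries (cox1) and 12 had all below, where 14.4% and 46.7% of all rows did so by the same divisor. The 12 were nad1, nad4, nad9, rpl16, rps3, rps12, ccmB, ccmFC, ccmFN1, ccmFN2, atp8 and mttB, the last coding for a subunit of a protein export system. The counts of 1 and 12 were the same without the seed library described next.

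Seed heso1-4 replicate 3 stood apart. Its cox1 share of non-ribosomal mitochondrial counts was 57.7%, above the 47.4% of the next seed library, while rps3 was 7.45% against 14.1% to 17.5% in the others, rpl16 2.92% against 4.80% to 5.51% and matR 0.154% against 0.282% to 0.359%. Of 19 members with a mean count of 100 or more, 10 were lower in it than in every other seed library and 2 (cox1 and nad6) higher. Other seed libraries were lowest for at most 2 members. These are shares of 1 sum, so they are not independent, and the part of the higher cox1 share in the 10 was not tested. Relative to the median of the other seed libraries the 10 shares ran from 0.484 (rps3) to 0.871 (atp4). On the within-tissue TMM-scaled level rps3 was 955 CPM in this library and 1210 to 1851 in the other seed libraries. By the same scaling nad7 was 131 CPM, inside the 114 to 159 of the others. nad9 (9.08%) and cox2 (12.3%) were inside the range of the others. The same library had the lowest TMM factor of the joint fit, 0.532 against 0.691 to 0.865 in the other seed libraries. Its plastid share of 9.38% was near the 9.29% of seed heso1-4 replicate 2, and the other seed libraries had 5.49% to 7.76%. The other 2 heso1-4 seed libraries, at 46.7% and 47.4% cox1, were the next highest.

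**Figure D4:**
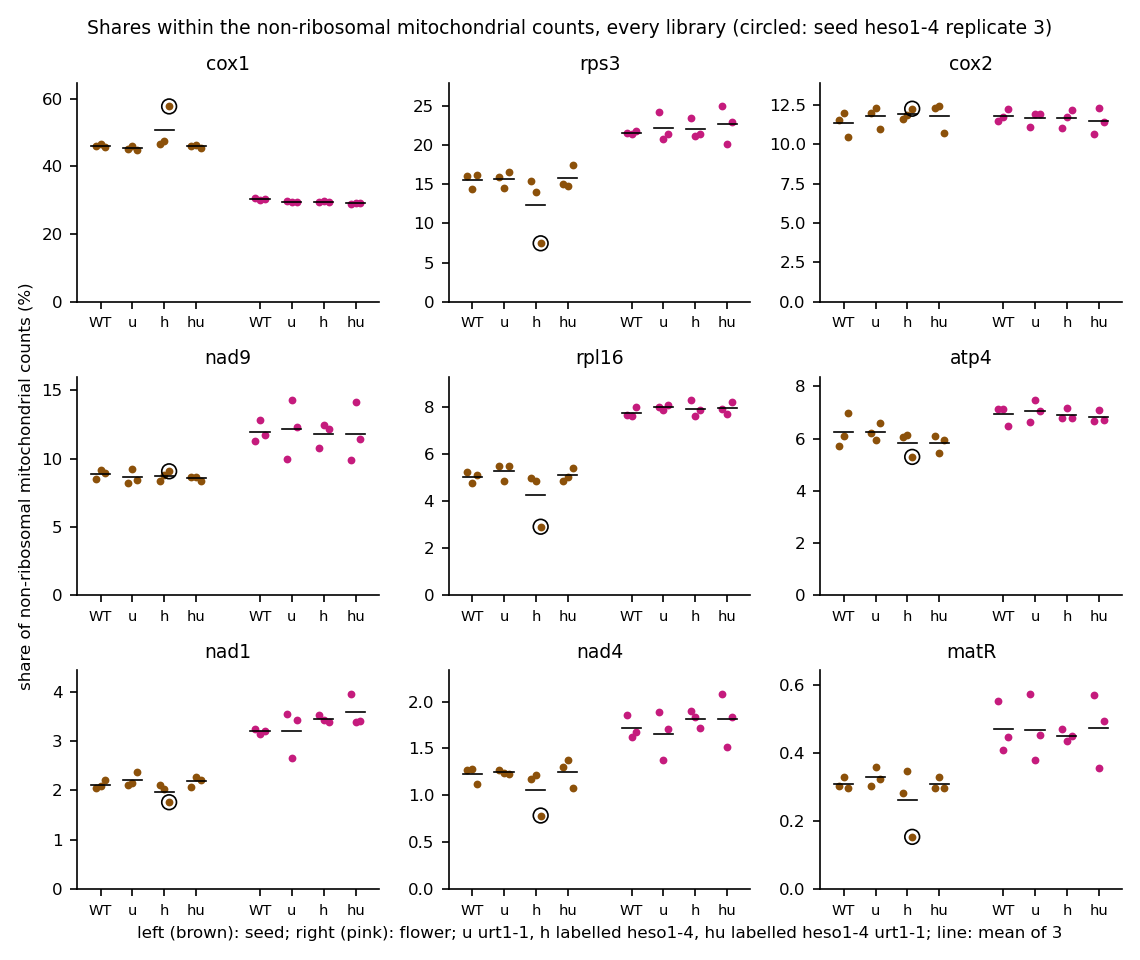
Share of the non-ribosomal mitochondrial counts, in percent, taken by 9 members in each of the 24 libraries, seeds left and flowers right, ordered by labelled genotype with a line at each mean of 3. cox1 is higher in all seed libraries than in all flower libraries, cox2 overlaps, and the circled library, seed heso1-4 replicate 3, lies outside the other seed libraries for cox1, rps3, rpl16, atp4, nad1, nad4 and matR.

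The study's title names the effect of both terminal uridylyltransferases, and no member was called between a labelled mutant and WT in either tissue. URT1 RNA was low where labelled, while HESO1 RNA was higher in the libraries labelled heso1-4, so these do not show a loss of HESO1 RNA. In seeds none of 29 members tested passed the threshold in the 3 mutants against WT (urt1-1, then heso1-4, then the double) or in the double against each single mutant (edgeR; 0 also by DESeq2). Few rows of any kind were called, 0.0279%, 0.0111%, 0.0557%, 0.039% and 0.0725% of 17939 in that order. At an unadjusted p under 0.05 there were 2, 0, 3, 0 and 5 members, where 6.9%, 3.76%, 8.62%, 1.27% and 10.6% of all rows lay under it. In flowers none of 29 was called in the same 5 comparisons by edgeR or DESeq2, with 0.00876%, 0.00876%, 0.0131%, 0.0131% and 0.0131% of 22841 rows called. The unadjusted counts were 0, 0, 0, 1 and 0 members, against 2.6%, 2.73%, 2.83%, 1.39% and 2.82% of all rows. A missing call does not show that levels were equal. These comparisons share libraries and are not independent.

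The members' medians were small. In seeds they were −0.13 for urt1-1, 0.03 for heso1-4 and −0.20 for heso1-4 urt1-1 against WT, with 6, 16 and 2 of 29 members above 0, while medians over all rows were within 0.01 of 0. In flowers they were −0.02, 0.01 and 0.10, with 11, 17 and 24 of 29 above 0. With library totals alone the median log2 of members was −0.03 for seed urt1-1 minus WT, −0.11 for seed heso1-4 minus WT and −0.13 for seed heso1-4_urt1-1 minus WT, so that of heso1-4 turned sign. In flowers the same medians were −0.03, −0.01 and 0.11, and that of heso1-4 turned sign. cox1 stood at 4612 ± 565 CPM (within-tissue TMM scaling, n = 3) in WT seeds, 4109 ± 365 in urt1-1, 5686 ± 1600 in heso1-4 and 4026 ± 282 in heso1-4 urt1-1. In flowers cox1 stood at 2779 ± 189, 2700 ± 92.3, 2690 ± 83.1 and 2796 ± 77.8 CPM for those groups, all of which overlapped.

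Values of the members nearest the threshold were as follows. mttB gave 13.9, 14.7 and 15.5 CPM in WT seeds, lowest to highest, and 11.3, 12.1 and 12.2 in urt1-1 seeds, without overlap (−0.31 ± 0.13, edgeR adjusted p = 0.67), and 11.97 ± 1.19 in heso1-4 urt1-1 seeds (−0.30 ± 0.13, edgeR adjusted p = 0.56). Scaled to mitochondrial counts the differences were −0.08 and 0.02. ccmFN2 stood at 5.84 ± 0.787 CPM in WT seeds and 4.34 ± 0.178 in heso1-4 urt1-1 seeds, without overlap (−0.43 ± 0.16, adjusted p = 0.48 by edgeR), and rpl2 at 96.5 ± 6.80 and 77.7 ± 11.2 (−0.31 ± 0.13, 0.55). trnN(GTT), the tRNA for asparagine, is annotated as chloroplast-like and has no unique window. It was counted 11, 43 and 27 times in WT seeds and 7, 16 and 25 times in urt1-1 seeds (−1.22 ± 0.49, edgeR adjusted p = 0.66). Between heso1-4 urt1-1 and heso1-4 seeds ccmFC (−0.50 ± 0.19, edgeR adjusted p = 0.38), cox1 (−0.50 ± 0.19, 0.39) and cox2 (−0.36 ± 0.15, 0.41) had the smallest p, and scaled to mitochondrial counts these were −0.04, −0.03 and 0.10. Without seed heso1-4 replicate 3 they were −0.38, −0.26 and −0.22 (edgeR adjusted p = 0.76, 0.80 and 0.79), and cox1 in heso1-4 against WT went from 0.30 to 0.07.

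In flowers rrn18 had the largest difference from WT. It stood at 1102, 1564 and 773 CPM in WT and 3163, 1483 and 1317 in heso1-4 urt1-1 for replicates 1 to 3, and the groups overlapped (0.79 ± 0.39, edgeR adjusted p = 1.0). WT seeds gave 1767, 989 and 1040 CPM of rrn18 and heso1-4 urt1-1 seeds 1126, 535 and 504. The difference between the seed and flower changes was −1.57 ± 0.66 (edgeR adjusted p = 0.83). nad1 was at 293 ± 18.4 CPM in WT flowers and 344 ± 26.0 in heso1-4 urt1-1 flowers, without overlap (0.23 ± 0.12, adjusted p = 1.0 by edgeR). nad7 stood at 149 ± 15.6 in urt1-1 and 176 ± 18.4 in heso1-4 urt1-1 (0.25 ± 0.11, unadjusted p = 0.048, edgeR adjusted p = 1.0). In the test of whether a mutant change differed between seeds and flowers no member of 30 was called by edgeR or DESeq2, against 0.0%, 0.00425% and 0.00425% of 23557 rows called, with urt1-1 first and heso1-4 urt1-1 last. In that order 1, 0 and 3 members had an unadjusted p under 0.05, as did 5.48%, 4.31% and 5.79% of all rows.

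**Figure D5:**
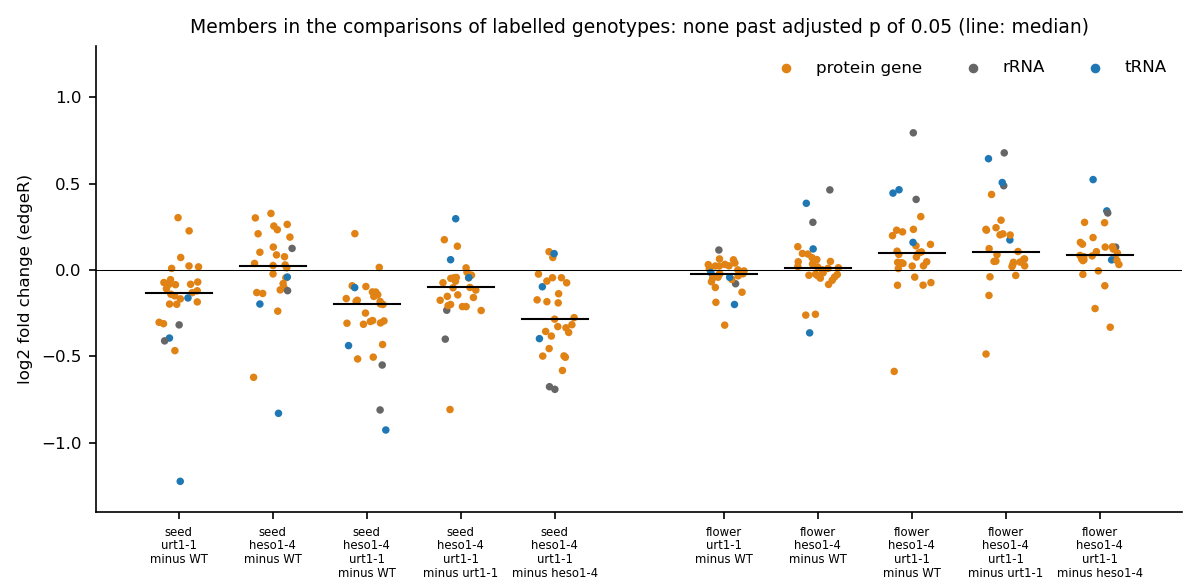
log2 fold change of the 29 members tested in each of 5 comparisons of labelled genotypes in seeds (left) and flowers (right), with a line at the median; orange points are protein genes, grey rRNA and blue tRNA. No point passed an adjusted p of 0.05, and the medians run from −0.28 (seed heso1-4 urt1-1 minus heso1-4) to 0.11 (flower heso1-4 urt1-1 minus urt1-1).

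Of 47 listed nuclear genes for mitochondrial functions, 19 were higher and 19 lower in WT seeds than in WT flowers by edgeR on the TMM-scaled level. Over all rows 32.9% were higher and 47.7% lower. The median was −0.14 over the listed genes and −0.56 over all rows. As for the members, such counts and medians rest on the scaling. With library totals the median over all rows was −1.38, and calls of the nuclear genes by that scaling are not given here. The list holds subunits of the complexes that members also encode, and genes of complex II, the alternative oxidases and mitochondrial RNA and DNA metabolism, which members do not. For the ATP synthase 1 of 6 was higher and 5 lower, among them ATP3, the gamma subunit gene, at 65.4 ± 3.72 and 131 ± 4.19 CPM in seeds and flowers (−1.01 ± 0.12, adjusted p = 2.2e-07 by edgeR), and ATP5, the delta subunit gene, at 47.7 ± 2.73 and 103 ± 6.498. For complex IV 0 of 4 were higher and 3 lower, with COX6B at 34.3 ± 3.77 and 51.6 ± 2.86 CPM (−0.59 ± 0.09, edgeR adjusted p = 5.7e-06), where mitochondrial cox1, cox2 and cox3 were higher in seeds by the same scaling. For complex I 2 of 8 were higher and 5 lower. For complex III and cytochrome c 2 of 6 were higher and 2 lower, with CYTC-2, a cytochrome c gene, at 73.7 ± 9.76 and 18.2 ± 2.64 CPM (2.02 ± 0.21, edgeR adjusted p = 3.0e-08).

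Some paralogues differed strongly between the tissues. SDH2-3, an iron-sulfur subunit gene of complex II, was at 302 ± 26.7 CPM in WT seeds and 0.0554 ± 0.0959 in WT flowers, and SDH2-2 at 13.3 ± 1.75 and 25.4 ± 2.96. AOX2, an alternative oxidase that passes electrons from ubiquinol to oxygen without complex IV, was at 40.4 ± 5.88 and 0.0231 ± 0.0212 CPM, and its paralogue AOX1B at 0.0287 ± 0.0498 and 2.19 ± 0.182. Of 13 genes for transcription, RNA processing and replication in mitochondria 10 were higher in seeds and 0 lower on the TMM-scaled level, against 32.9% and 47.7% of all rows. Their median was 0.93 by that scaling, on which its size depends. EMB2730, annotated as a mitochondrial RNase II, was at 94.3 ± 9.84 CPM in seeds and 24.6 ± 1.38 in flowers (1.94 ± 0.12, edgeR adjusted p = 7.0e-12), and POLGAMMA2, an organellar DNA polymerase, at 71.9 ± 5.15 and 33.5 ± 0.286 (1.10 ± 0.10, 1.5e-09). In the 10 comparisons within a tissue 0 of 44 nuclear genes tested were called by edgeR.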

How the data were processed

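The deposited values are whole-number counts of reads for each gene, 1 table for seeds and 1 for flowers. Per the file headers, featureCounts assigned reads over whole gene spans, reverse-stranded and paired, with a read given to every gene it overlaps; the command recorded is cut off. Per the submitters' processing notes, HISAT2 2.2.1, featureCounts 2.0.6 and TAIR10 were used. Groups and replicate numbers come from the labels.

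Members are the 54 ATMG rows. They and the gene lists were chosen with earlier results of these data known. Names come from RefSeq TAIR10.1 by coordinates (52 with the same start, end and strand, ccmFC by start and strand, nad1 by start and end); nad2, nad4L and nad5 are not analysed here. The quasi-likelihood test of edgeR 4.0.16 (R 4.3.3) was run on all rows (filterByExpr, minimum count 10 and total 15, TMM, robust fit, prior count 0.125, Benjamini-Hochberg over every row tested, threshold 0.05), over 12 libraries of a tissue (17939 and 22841 rows, 29 members each) or all 24 (23557 rows, 30 members), after a check on simulated data. Shares used the sum over ATMG rows as library size. Unique windows of 50 bases were sought in the whole reference genome, without regard to read pairing, and copies with BLAST 2.17.0. DESeq2 1.42.0, other scalings, no filter, a replicate block and leaving out each library were alternatives. Members named are URT1 and HESO1, up to 10 rises and 10 falls called without overlap between tissues, the highest levels per length, and the 3 smallest p per genotype comparison where none was called; nad4, ccmFN2, nad9, rps3 and other members outside this rule were named after their values were seen.

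Replicate numbers paired libraries where deviations from the group means correlated above 0.1 for all 3 numbers, as in 8 of 12 genotype pairs within a tissue but not between WT seeds and flowers (−0.012, 0.032 and −0.0044). P-values measure the spread between these libraries. Figures were drawn with matplotlib 3.10.9.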

Additional observations from a re-analysis of the deposited data

How the results depend on the processing

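The count of members called between WT seeds and flowers (19) moved to 12 with library totals and no further scaling (2 higher, 10 lower) and ranged from 12 to 19 on leaving out 1 WT library; by share of mitochondrial counts (14) it moved to 9 without rRNA and cox1 in the sum and ranged from 10 to 14 with 1 library left out. The counts of 0 in all genotype comparisons and their differences between tissues were 0 under every alternative run, from 0 to 0 with a library left out. With the replicate block the WT tissue counts were 21 and 20, and no genotype call of a member changed. The median mitochondrial share of all counts was 1.38% in seeds and 1.43% in flowers, and 0.966% and 0.936% without rRNA. Without plastid rows in the denominator the share was 1.29% to 1.91% in seeds and 1.61% to 2.73% in flowers (median 1.88% in flowers). Of the members named, the sign turned with library totals for cob (−0.0013), atp4 (−0.032) and nad7 (−0.25), and with scaling to mitochondrial counts for cox2 (−0.075), cob (−0.11), atp4 (−0.14) and nad7 (−0.37) between tissues. Among uncalled genotype values, scaling to mitochondrial counts turned rpl2 in urt1-1 (0.025) and heso1-4 urt1-1 seeds (0.0030), mttB in heso1-4 urt1-1 seeds (0.017), cox2 in heso1-4 urt1-1 against heso1-4 seeds (0.097), nad1 (−0.0063 against WT, −0.0014 against urt1-1) and nad7 (−0.040) in heso1-4 urt1-1 flowers, and ccmFN2 (0.0027) and rpl2 (0.14) in the heso1-4 urt1-1 difference between tissues; trnY(GTA) copy 2 in urt1-1 flowers ranged from −0.63 to 0.038 with a library left out, the latter without flower urt1-1 replicate 2. Scaling to mitochondrial counts divides by the members' own sum, which shifts all members of a comparison alike. Between WT tissues the members' median was then −0.48. The cause of the turns in sign was not tested. Members without unique sequence rest on few counts, and this limits every comparison of them.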
